A study of Homo sapiens with 6 samples.

Results

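The genes described here encode the receptors for glutamate, GABA and glycine. They were chosen by name, as every human gene of these receptor families, without the use of any measured value. The rule gave 51 genes of the 67060 in the count table, all protein-coding in GENCODE, and all 51 identifiers were found. They comprise 4 AMPA, 2 delta, 5 kainate and 7 NMDA receptor genes, 8 metabotropic glutamate receptor genes, 16 GABA-A subunit genes, 3 genes of the rho subunits, 2 GABA-B receptor genes and 4 glycine receptor genes.

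Glutamate is the main excitatory transmitter of the brain, and GABA and glycine are the main inhibitory ones. AMPA, kainate and NMDA receptors are cation channels built from 4 subunits, and the mix of subunits sets how much calcium they pass and how fast they close. Metabotropic glutamate receptors and GABA-B receptors signal through G proteins, many of them at the presynaptic terminal. GABA-A and glycine receptors are chloride channels built from 5 subunits. Midbrain dopaminergic neurons, the subject of the study from which these cells come, are driven by glutamatergic and held back by GABAergic input.

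The cells were SH-SY5Y, a human neuroblastoma line that carries catecholaminergic traits and is described in the labels as neuronal progenitor cells. One group was infected with an adenovirus that expresses GFP (Ad CMV GFP, 3 libraries, replicates 1, 3 and 4). The other group received an adenovirus with the mouse coding sequence of *Esrrg* and a 3xFlag tag (Ad CMV 3xFlag-*Esrrg*, 3 libraries, replicates 2, 3 and 4). *Esrrg* encodes estrogen-related receptor gamma (ERRγ), an orphan nuclear receptor that acts as a transcription factor. Both viruses use the CMV promoter, which is active in most infected cells, and RNA was collected after 24 h. The virus volume was listed as 0.5 µl in each group. No uninfected cells were analysed here, and the share of infected cells is not given in the sources used here. It is not given either whether the libraries came from separate cultures, so p-values measure the spread between these libraries, which may be technical. In bulk RNA, fewer cells of one type and less RNA per cell cannot be told apart.

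The control libraries held 24969759 to 29700980 reads on genes, and the Ad CMV 3xFlag-*Esrrg* libraries 26513620 to 40859666. The fraction of reads outside any gene was 51.3% to 52.2% in the controls, and 46.6% in replicate 2, 31.6% in replicate 3 and 29.5% in replicate 4 of the other group, so replicate 2 stood apart from the other two. *ESRRG*, the targeted gene, measured 83.6, 90.4 and 86.9 CPM (counts per 1000000 reads on genes, scaled by the TMM method of edgeR) with Ad CMV GFP and 570, 772 and 778 CPM with Ad CMV 3xFlag-*Esrrg*, a log2 fold change of 3.02 (SE 0.14). Reads of the mouse sequence that align to the human gene are counted with it. Of 13 markers of adrenergic neuroblastoma cells, 11 reached a mean of 10 counts, and *TH* and *CHGA* were listed at 0. Their summed level was 920 to 981 CPM with Ad CMV GFP and 657 to 852 CPM with Ad CMV 3xFlag-*Esrrg*. All 8 mesenchymal markers were measured, at 5778 to 5868 CPM against 6366 to 6647 CPM, and without *FN1* the other 7 summed to 3812 to 3891 CPM against 3735 to 3960 CPM. Of 5 glial markers 3 reached a mean of 10 counts, at 7.69 to 8.52 CPM against 5.78 to 6.86 CPM, or 1.63 to 1.97 CPM against 2.08 to 2.28 CPM without *MBP*, with *MOG* at 0. Of 4 immune markers 2 did, at 2.7 to 3.23 CPM against 2.77 to 2.88 CPM, with *CD3E* at 0. Most transcript sequence of *CHGA* (90.3%) and *MOG* (82.7%) also occurs in alternate contigs of GRCh38, where reads may not have been counted, so their 0 is uncertain. The part of these shifts in the results below was not tested.

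SH-SY5Y cells carried RNA of many of these receptors, at low levels. Of the 51 genes, 30 averaged 10 counts or more over the 6 libraries, and 21 were below that. Of these 21 genes, 16 had at most 5 counts in every library, and *GABRA2*, *GABRB2* and *GABRG1* were among those with 0 counts in all libraries, which allows up to 3 counts or 0.0880 to 0.112 CPM per library (counting error only). Per kilobase of exon, the highest means with Ad CMV GFP were 5.21 CPM for *GRIK5*, 4.07 CPM for *GABRA3* and 3.86 CPM for *GRM7*. With the longest transcript as the length, the values were 6.61, 4.6 and 8.28, which puts *GRM7* ahead. As a measure of reads on genes that are silent in most tissues, 364 olfactory receptor genes had a pooled level of 0.0371 to 0.0402 CPM per kb with Ad CMV GFP, and 0.0459, 0.0246 and 0.0202 CPM per kb in Ad CMV 3xFlag-*Esrrg* replicates 2, 3 and 4. In 95% of the olfactory receptor genes the mean level was below 0.406 CPM per kb with Ad CMV GFP and below 0.117 CPM per kb with Ad CMV 3xFlag-*Esrrg*. The receptor genes above these levels numbered 14 and 20, of which 13 were above both. All of the genes above both were glutamate receptor genes but for *GABRA3*, *GABRE*, *GABRQ* and *GLRB*. Genes above neither level included *GRIA1*, *GRIA2*, *GRIN3B* and *GRM6*, which are among those called below.

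**Figure D1:**
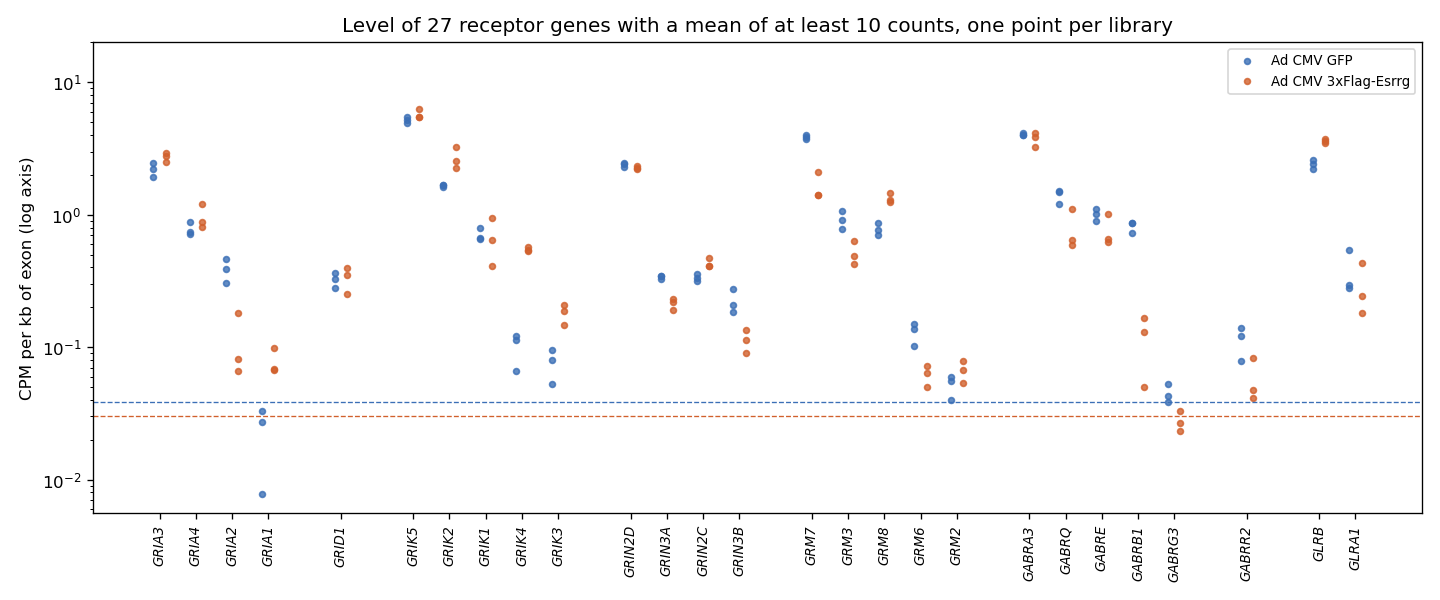
Level of 27 of the 30 receptor genes that averaged 10 counts or more, as TMM-scaled CPM per kb of exon on a log axis, with 1 point per library (blue, Ad CMV GFP; orange, Ad CMV 3xFlag-Esrrg). Dashed lines give the mean over each group's libraries of the pooled level of 364 olfactory receptor genes, and genes are ordered by family and then by their Ad CMV GFP mean. These means run from 5.21 CPM per kb for *GRIK5* to 0.0228 CPM per kb for *GRIA1*.

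Ad CMV 3xFlag-*Esrrg* was compared with Ad CMV GFP to ask which receptor transcripts differ when ERRγ is raised. A call required a Benjamini-Hochberg adjusted p below 0.05 by the quasi-likelihood test of edgeR, over 24500 genes, and at least a 1.5-fold difference. Passing the filter on low counts were 31 of the 51 genes, the 30 above and *GRIN1*. The count level of that filter was passed in all 6 libraries by 24 of them. *GRIA1* passed it only in the Ad CMV 3xFlag-*Esrrg* libraries and *GRIN1* only in the Ad CMV GFP libraries. *GABRB1*, *GABRG3* and *GABRR2* passed it in 3 Ad CMV GFP libraries and 1 of the others, and *GRIN3B* in 3 and 2. Of the 31 genes tested, 5 were called higher (*GRIK4*, *GRIA1*, *GRIK3*, *GRM8* and *GRIK2*) and 10 lower (among them *GABRB1*, *GRIA2*, *GRM7*, *GRM6*, *GRIN3B*, *GRM3*, *GABRQ* and *GRIN3A*), while 16 were not called. Over all genes tested 34.1% were called, 17.3% higher and 16.8% lower. The shares for the receptor genes tested were 48.4%, 16.1% and 32.3%. Over tested protein-coding genes the shares were 38.3%, 25.9% and 12.4%. With scaling to library size only, 2200 genes were higher and 7566 lower in place of 4234 and 4117, and of the receptor genes 3 were higher and 13 lower. The median log2 fold change was -0.11 for the receptor genes, -0.10 for all genes and 0.12 for protein-coding genes. With no fold cutoff, 16 of the 31 genes passed, against 47.8% of all genes and 60.0% of protein-coding ones. In 20 of the 31 genes the groups did not overlap, against 58.1% of all genes tested and 70.3% of protein-coding ones.

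Leaving out Ad CMV 3xFlag-*Esrrg* replicate 2 gave 6 genes higher and 10 lower. With the fraction of non-genic reads added to the fit as a covariate, which moves with the group so that the 2 cannot be fully told apart, 5 of the 15 calls were kept (*GRIK4*, *GRIK2*, *GRM7*, *GRM8* and *GABRB1*) and 10 were lost. The covariate also gave 3 calls that the main comparison did not, higher for *GRIA4* (0.80, adjusted p = 5.8e-04), *GRIK1* (0.72, adjusted p = 0.030) and *GLRB* (0.60, adjusted p = 0.0071), all by edgeR. *GRIK4*, *GRM7* and *GABRB1* were called in the main comparison and in every one of the other fits that could test them, 16 fits for *GRIK4* and *GRM7* and 15 for *GABRB1*. Of these genes, *GABRB1* was tested only because of its counts in the group where it was higher.

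**Figure D2:**
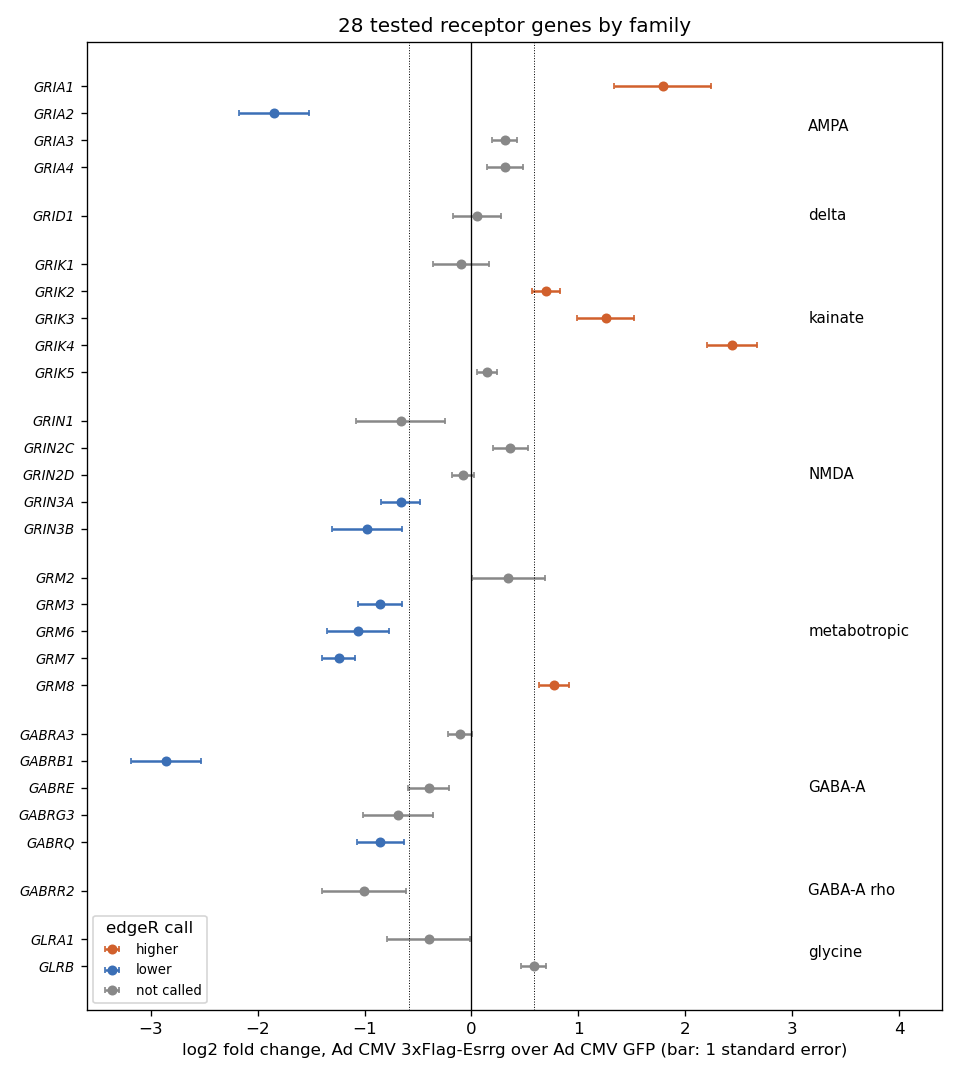
Log2 fold change of Ad CMV 3xFlag-Esrrg over Ad CMV GFP for 28 of the 31 tested receptor genes, grouped by family (points, edgeR estimates; bars, 1 standard error; dotted lines, 1.5-fold). The 3 kainate genes called lie to the right, up to 2.43 for *GRIK4*, and the GABA-A genes shown as called lie to the left, down to -2.86 for *GABRB1*.

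The sequences upstream of 4 genes are given because these genes were the most changed of the kainate, metabotropic, AMPA and GABA-A families by adjusted p. Each line is the 250 bases before a transcript start of RefSeq on GRCh38.p14, on the plus strand, with the GC box motif GGGCGG, a site known to bind Sp1 family factors, in capitals in either orientation.
*GRIK4*, chr11:120511498-120511747: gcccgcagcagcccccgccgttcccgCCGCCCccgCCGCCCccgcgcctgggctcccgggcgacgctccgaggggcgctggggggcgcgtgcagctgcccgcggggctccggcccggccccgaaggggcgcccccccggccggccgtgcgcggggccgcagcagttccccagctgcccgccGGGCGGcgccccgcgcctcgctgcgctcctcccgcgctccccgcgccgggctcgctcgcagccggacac
*GRM7*, chr3:6860865-6861114: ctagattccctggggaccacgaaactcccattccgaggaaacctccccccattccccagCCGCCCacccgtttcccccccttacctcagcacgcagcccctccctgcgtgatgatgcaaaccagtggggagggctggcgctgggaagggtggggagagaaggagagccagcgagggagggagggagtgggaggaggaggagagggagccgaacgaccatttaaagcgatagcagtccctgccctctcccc
*GRIA2*, chr4:157219870-157220119: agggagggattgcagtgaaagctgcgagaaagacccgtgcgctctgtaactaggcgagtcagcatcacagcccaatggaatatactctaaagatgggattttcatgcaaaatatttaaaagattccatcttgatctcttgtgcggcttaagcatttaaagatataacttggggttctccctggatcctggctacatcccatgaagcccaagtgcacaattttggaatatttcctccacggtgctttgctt
*GABRB1*, chr4:47031317-47031566: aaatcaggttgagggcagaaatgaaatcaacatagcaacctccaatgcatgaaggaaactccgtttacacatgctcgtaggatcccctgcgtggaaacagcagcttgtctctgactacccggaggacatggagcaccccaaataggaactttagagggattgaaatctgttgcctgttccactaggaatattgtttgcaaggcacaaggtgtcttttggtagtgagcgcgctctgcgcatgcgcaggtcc
The starts used for *GRM7*, *GRIA2* and *GABRB1* lie inside the gene bounds of GENCODE, which include longer transcripts. The *GRIK4* stretch was 86.8% G and C, with 44 CG pairs and 3 GC boxes, and the *GRM7* stretch 64.4%, with 11 CG pairs and 1 GC box. *GRIA2* and *GABRB1*, both lower with Ad CMV 3xFlag-*Esrrg* as *GRM7* was, had 44.4% and 49.2% G and C and 0 GC boxes. RefSeq windows of 300 bases, 250 before the start and 50 after it, were found for 38 of the 51 genes, 57 windows in all. The extended site at which ERR proteins bind DNA, searched as TNAAGGTCA on both strands, was in 0 of the 57 windows, and the shorter AAGGTCA within it also in 0. For 0 of 57 the exact 95% binomial interval reaches 6.27%, and the shares over all 35116 windows were 0.951% and 3.92%. GGGCGG was in 28 windows (49.1%, interval 35.6% to 62.7%), against 45.0% of all windows. These intervals treat windows of the same gene as independent, so they may be too narrow. The cAMP response element TGACGTCA was in 1 window (1.75%), against 1.85%.

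Beside 25.9% higher and 12.4% lower over tested protein-coding genes, the kainate receptor genes had 3 of 5 higher and 0 lower with Ad CMV 3xFlag-*Esrrg*. *GRIK1* and *GRIK5* were not called. At an unadjusted p below 0.05 in edgeR the counts were also 3 and 0, and DESeq2 called 3 and 0. *GRIK4* (ENSG00000149403, chr11:120511746-120988906) encodes GluK4, a high-affinity subunit that forms channels only together with GluK1, GluK2 or GluK3. It measured 0.497, 0.905 and 0.846 CPM with Ad CMV GFP and 3.97, 4.25 and 4.08 CPM with Ad CMV 3xFlag-*Esrrg*. The groups lay far apart, and the log2 fold change was 2.43 (SE 0.23, adjusted p = 4.2e-05), a 5.40-fold difference. These values rest on 14 to 28 counts per library in the control group and 106 to 143 in the other.

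*GRIK3* encodes GluK3, a subunit known from presynaptic kainate receptors. Its levels were 0.993, 0.550 and 0.846 CPM against 1.53, 1.96 and 2.17 CPM, again with no overlap. The log2 fold change of *GRIK3* was 1.25 (SE 0.27, adjusted p = 0.0033). *GRIK2* (ENSG00000164418, chr6:100962701-102081622), which encodes the widely expressed channel-forming subunit GluK2, had the most counts of all the receptor genes, with 1263 to 1441 per Ad CMV GFP library. It measured 44.8, 44.9 and 43.5 CPM with Ad CMV GFP and 87.6, 68.1 and 60.2 CPM with Ad CMV 3xFlag-*Esrrg*. Replicate 2 was the highest of the second group, and the log2 fold change was 0.70 (SE 0.13, adjusted p = 0.0015). The call was lost with scaling to library size only, where the value was 0.40 and the median of all genes was -0.42, with protein-coding genes only (0.57) and with the replicate number as a block (0.53).

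*GRIK5*, which encodes the high-affinity subunit GluK5, was the kainate gene with the highest level per kb of all exons, and it measured 31, 28.4 and 29.9 CPM against 31.3, 31.4 and 36.1 CPM. Its groups were apart by a small margin, and the difference was not called (log2 fold change 0.15, SE 0.10, adjusted p = 0.24). *GRIK1*, which encodes GluK1, measured 4.26, 5.24 and 4.38 CPM against 6.17, 4.22 and 2.67 CPM. The second group spanned the first, and the log2 fold change was -0.10 (SE 0.26, adjusted p = 0.77). With the non-genic read covariate it was 0.72 and called higher. The shares of the 5 subunit transcripts, as CPM per kb, give a description of the family that does not depend on library scaling. *GRIK4* made up 0.840% to 1.59% of the kainate sum with Ad CMV GFP and 5.12% to 6.03% with Ad CMV 3xFlag-*Esrrg*. *GRIK2* made up 21% to 22% against 23.1% to 31.5%, and *GRIK5* 65.2% to 68.6% against 52.8% to 64.9%. These shares depend on the length used, and with the longest transcript *GRIK2* made up 46.0% to 47.4% against 48.8% to 59.6%, *GRIK5* 44.7% to 47.5% against 31.7% to 43.6%, and *GRIK4* 0.589% to 1.10% against 3.11% to 3.89%. The summed level was 7.75 ± 0.15 CPM per kb (SD, n = 3) with Ad CMV GFP and 9.83 ± 0.48 CPM per kb (SD, n = 3) in the other group.

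The AMPA receptor genes moved in both directions, with 1 higher, 1 lower and 2 not called. The shares over tested protein-coding genes were 25.9% higher and 12.4% lower. *GRIA2* (ENSG00000120251, chr4:157204182-157387146) encodes GluA2, the subunit that, once its RNA is edited, keeps AMPA receptors from passing calcium. It measured 6.63, 5.53 and 4.35 CPM with Ad CMV GFP and 2.58, 1.16 and 0.939 CPM with Ad CMV 3xFlag-*Esrrg*. The highest library of the second group was below the lowest of the first, and the log2 fold change was -1.85 (SE 0.33, adjusted p = 0.0011). With the non-genic read covariate the log2 fold change was -0.64 and the call was lost.

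*GRIA1*, which encodes GluA1, a subunit that can form calcium-permeable channels, was near the level of the olfactory receptor genes. It measured 0.213, 0.259 and 0.0604 CPM against 0.524, 0.772 and 0.528 CPM, from 2 to 8 counts per library against 14 to 26. The groups did not overlap, and the log2 fold change was 1.79 (SE 0.46, adjusted p = 0.0085). *GRIA1* was tested only because of its counts in the group where it was higher, so its call is given as a description, and it was lost with the non-genic read covariate (1.54, adjusted p = 0.14). *GRIA3*, which encodes GluA3, was the leading AMPA gene, at 15.9, 14.4 and 12.5 CPM against 18.7, 18.0 and 16.3 CPM. Its groups were apart but the adjusted p was 0.051 (log2 fold change 0.31, SE 0.12). *GRIA4*, which encodes GluA4, measured 7.56, 9.28 and 7.76 CPM against 12.8, 9.33 and 8.54 CPM, an overlap, with a log2 fold change of 0.31 (SE 0.17, adjusted p = 0.15). As a share of the AMPA sum, *GRIA2* went from 12.7%, 11% and 10.2% in the Ad CMV GFP libraries to 4.16%, 2.11% and 1.91% in the Ad CMV 3xFlag-*Esrrg* libraries. *GRIA1* went from 0.260% to 0.942% in the first group to 1.54% to 2.57% in the second, so it stayed a minor part of the family. The share of *GRIA3* overlapped between groups, at 63.1% to 67.0% and 66.5% to 72.8%. This depends on the length used, and with the longest transcript the *GRIA3* shares did not overlap, at 53.4% to 57.1% and 58.46% to 65.95%. Those of *GRIA2* were then 15.7% to 19.4% and 3.10% to 6.57%.

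The delta receptors are related in sequence to the other glutamate receptor channels but act at synapses through cerebellins rather than as glutamate-gated channels. *GRID1* measured 2.27, 2.04 and 1.75 CPM against 1.57, 2.20 and 2.47 CPM. Its groups overlapped, and it was not called by edgeR or DESeq2 (log2 fold change 0.05, SE 0.22, adjusted p = 0.86).

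The obligatory NMDA receptor subunit was close to the detection limit. Of the 7 NMDA receptor genes 5 were tested, with 0 higher and 2 lower, beside 25.9% and 12.4% of tested protein-coding genes. At an unadjusted p below 0.05 in edgeR the counts were the same, while DESeq2 called 0 in either direction (1 higher and 1 lower at an unadjusted p below 0.05). *GRIN1*, which encodes the GluN1 subunit that every NMDA receptor contains, had 10 to 13 counts per Ad CMV GFP library and 4 to 12 per Ad CMV 3xFlag-*Esrrg* library. These are 0.390, 0.323 and 0.393 CPM against 0.150, 0.356 and 0.176 CPM, with an overlap and a log2 fold change of -0.66 (SE 0.42, adjusted p = 0.21). Among the genes of the glutamate-binding GluN2 subunits, *GRIN2D* led with 13.6, 12.7 and 13.3 CPM against 12.2, 12.5 and 12.8 CPM. Its groups overlapped by a little, and the log2 fold change was -0.08 (SE 0.10, adjusted p = 0.55). With the GC and length correction *GRIN2D* was called lower (-0.62, adjusted p = 0.0028). *GRIN2C* measured 3.05, 2.88 and 2.69 CPM against 4.08, 3.51 and 3.52 CPM, groups that were apart but not called (0.36, SE 0.17, adjusted p = 0.094). *GRIN2A* and *GRIN2B*, the main GluN2 genes of the adult forebrain, stayed at or below 7 counts in every library and were not tested.

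*GRIN3A* and *GRIN3B* encode the glycine-binding GluN3 subunits, which lower the calcium flow of NMDA receptors that contain them. *GRIN3A* measured 2.66, 2.85 and 2.81 CPM against 1.91, 1.57 and 1.79 CPM, with no overlap (log2 fold change -0.66, SE 0.18, adjusted p = 0.013). *GRIN3B* measured 0.603, 0.679 and 0.906 CPM against 0.374, 0.297 and 0.440 CPM, also with no overlap (-0.98, SE 0.32, adjusted p = 0.029). *GRIN3B* did not pass the count level of the filter in all Ad CMV 3xFlag-*Esrrg* libraries. It was tested only because of its counts in the group where it was higher, so its call is given as a description. The calls of *GRIN3A* and *GRIN3B* were each lost in 6 of the 16 other fits. For *GRIN3A* these included leaving out Ad CMV GFP replicate 3 (-0.64, adjusted p = 0.051), Ad CMV GFP replicate 4 (-0.65, adjusted p = 0.052) or Ad CMV 3xFlag-*Esrrg* replicate 3 (-0.58, adjusted p = 0.064). For *GRIN3B* they included leaving out Ad CMV GFP replicate 3 (-1.03, adjusted p = 0.063), Ad CMV GFP replicate 4 (-0.78, adjusted p = 0.14), Ad CMV 3xFlag-*Esrrg* replicate 2 (-0.88, adjusted p = 0.054) or replicate 3 of that group (-0.83, adjusted p = 0.11), all by edgeR.

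**Figure D3:**
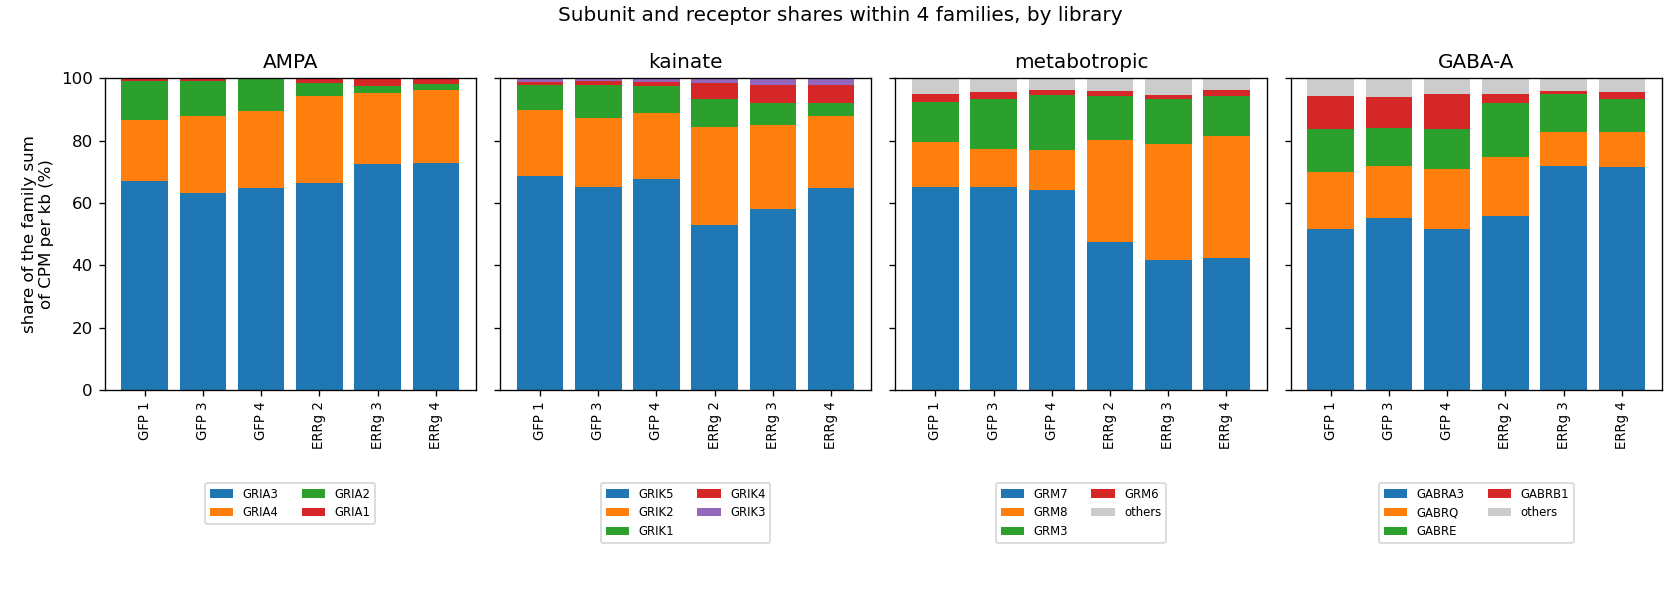
Share of each transcript in the summed CPM per kb of exon of 4 receptor families, with 1 stacked bar per library (GFP, Ad CMV GFP; ERRg, Ad CMV 3xFlag-Esrrg; numbers are replicates; genes that stay under 2% in every library and genes not named here are pooled as others). *GRM7* falls from 64.9% to 43.8% of the metabotropic sum on average while *GRM8* rises from 13.1% to 36.3%, and *GABRB1* shrinks from 10.6% to 1.99% of the GABA-A sum.

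Of the 8 metabotropic glutamate receptor genes 6 were tested, with 1 higher and 4 lower, beside 25.9% and 12.4% of tested protein-coding genes. *GRM4* and *GRM5* were not tested. The largest counts belonged to *GRM7* (ENSG00000196277, chr3:6770001-7741533), which encodes mGluR7, a presynaptic receptor of low glutamate affinity that couples to inhibitory G proteins. *GRM7* measured 36.1, 33.9 and 35.3 CPM with Ad CMV GFP and 19.3, 12.7 and 12.8 CPM with Ad CMV 3xFlag-*Esrrg*. Replicate 2 of the second group lay between the others of its group and the controls, and the log2 fold change was -1.24 (SE 0.15, adjusted p = 1.5e-04), a 2.36-fold difference.

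*GRM8* (ENSG00000179603, chr7:126438598-127253093) encodes mGluR8, a presynaptic receptor of the same group of metabotropic receptors (group III) with high glutamate affinity. It went the other way, with 5.50, 4.46 and 4.86 CPM against 9.20, 7.93 and 8.22 CPM. All 3 libraries of the second group were above the first, and the log2 fold change was 0.77 (SE 0.14, adjusted p = 0.0012). This call was lost with scaling to library size only, where the value was 0.46. *GRM6*, of the same group III and known from the ON bipolar cells of the retina, measured 1.24, 1.13 and 0.846 CPM against 0.598, 0.416 and 0.528 CPM, with no overlap (-1.06, SE 0.29, adjusted p = 0.012). Its call was lost in 4 of the 16 other fits, which left out Ad CMV GFP replicate 1 (-0.95, adjusted p = 0.056) or replicate 3 of the Ad CMV 3xFlag-*Esrrg* group (-0.92, adjusted p = 0.058), or were made with DESeq2 (-0.97, adjusted p = 0.0503) or with the covariate (-0.74, adjusted p = 0.39).

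*GRM3*, a group II gene whose product mGluR3 is found on neurons and glia, measured 3.51, 4.07 and 4.80 CPM against 2.84, 2.17 and 1.91 CPM. The groups did not overlap, and the log2 fold change was -0.85 (SE 0.21, adjusted p = 0.0064). The call was lost with the non-genic read covariate (-0.40, adjusted p = 0.38). Of its exon bases, 18.9% lie under exons of the antisense gene *GRM3-AS1*. *GRM2*, the other group II gene, measured 0.284, 0.420 and 0.393 CPM against 0.561, 0.475 and 0.382 CPM, an overlap (0.35, SE 0.34, adjusted p = 0.42). *GRM5*, a group I gene whose product couples to phospholipase C, had 9 to 13 counts against 2 to 6, and 50.2% of its exon bases are overlapped by exons of *GRM5-AS1*. The summed level of the 8 genes was 5.95 ± 0.19 CPM per kb (SD, n = 3) with Ad CMV GFP and 3.71 ± 0.65 CPM per kb (SD, n = 3) in the other group. *GRM8* made up 12.3% to 14.3% of it in the first group and 32.6% to 39.1% in the second, and *GRM7* 64.2% to 65.3% and 41.6% to 47.5%.

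Of the 16 GABA-A subunit genes, 6 were tested, with 0 higher and 3 lower, beside 25.9% and 12.4% of tested protein-coding genes. The counts were also 0 and 3 at an unadjusted p below 0.05 in edgeR. DESeq2, which tests more of the low genes, called 0 higher and 4 lower. The edgeR fold changes of all 6 genes tested were negative, which for *GABRE* turned with the non-genic read covariate (0.25) and for *GABRA3* with the replicate number as a block (0.00099) and without Ad CMV 3xFlag-*Esrrg* replicate 2 (0.094). A usual receptor has 2 alpha and 2 beta subunits, with GABA bound between them, and 1 further subunit. The only alpha subunit gene at a substantial level was *GABRA3*, at 17.2, 16.7 and 16.7 CPM against 13.5, 16.1 and 17.3 CPM. The groups of *GABRA3* overlapped, and the log2 fold change was -0.11 (SE 0.11, adjusted p = 0.46).

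The largest difference among the GABA-A genes tested was in a beta subunit gene. *GABRB1* (ENSG00000163288, chr4:46993723-47426447), which encodes the beta1 subunit, measured 2.55, 2.17 and 2.54 CPM with Ad CMV GFP and 0.486, 0.149 and 0.382 CPM with Ad CMV 3xFlag-*Esrrg*. These are 67 to 84 counts per library against 5 to 13, and the log2 fold change was -2.86 (SE 0.33, adjusted p = 1.0e-04), a 7.24-fold difference. *GABRB1* passed the count level of the filter in 3 Ad CMV GFP libraries and 1 of the others. It was tested only because of its counts in the group where it was higher, so its call is given as a description. *GABRB2*, of another beta subunit, was at 0 counts in all 6 libraries.

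Of the less common subunits, *GABRQ* (theta) measured 9.58, 7.86 and 9.73 CPM against 7.18, 3.83 and 4.17 CPM. The highest library of the second group came close to the lowest of the first without overlap, and the log2 fold change was -0.85 (SE 0.22, adjusted p = 0.0093). With the non-genic read covariate that of *GABRQ* was -0.07. *GABRE* (epsilon) measured 10.6, 8.63 and 9.67 CPM against 9.76, 6.27 and 5.96 CPM, an overlap (-0.40, SE 0.19, adjusted p = 0.10), and was called lower with scaling to library size only (-0.70). *GABRG3*, of a gamma subunit, measured 0.674, 0.485 and 0.544 CPM against 0.337, 0.416 and 0.293 CPM, from 9 to 19 counts per library (-0.69, SE 0.33, adjusted p = 0.11). *GABRR2*, of the rho subunits best known from the retina, measured 0.603, 0.388 and 0.695 CPM against 0.411, 0.238 and 0.205 CPM, an overlap (-1.01, SE 0.39, adjusted p = 0.056). *GABRR2* was called lower in 6 of the 15 other fits, among them the replicate number as a block (-1.26, adjusted p = 0.035), and measured -0.14 with the covariate. Below the filter on low counts, *GABRA4*, of an extrasynaptic alpha subunit, had 12, 9 and 8 counts with Ad CMV GFP and 0, 1 and 2 with Ad CMV 3xFlag-*Esrrg*, and *GABRD*, of the extrasynaptic delta subunit, had 1, 2 and 3 against 4, 11 and 12.

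Several GABA-A genes lie in clusters in the genome, which arose by duplication, and the members of a cluster differed in level. At chr4:46035769-47426447 lie *GABRG1*, *GABRA2*, *GABRA4* and *GABRB1*, of which the first pair was at 0 and the second pair had lower counts with Ad CMV 3xFlag-*Esrrg*. At chrX:151953124-152657542 lie *GABRE*, *GABRA3* and *GABRQ*, which held the highest GABA-A levels. The GABA-A sum was 7.72 ± 0.39 CPM per kb (SD, n = 3) with Ad CMV GFP and 5.68 ± 0.24 CPM per kb (SD, n = 3) in the other group. *GABRB1* made up 10.1% to 11% of it in the first group and 0.932% to 2.83% in the second, and *GABRA3* 51.5% to 55.0% and 55.7% to 71.8%. With the longest transcript as the length, *GABRB1* made up 12.2% to 13.4% and 1.17% to 3.48%, and *GABRA3* 46.4% to 49.5% and 50.9% to 67.0%.

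**Figure D4:**
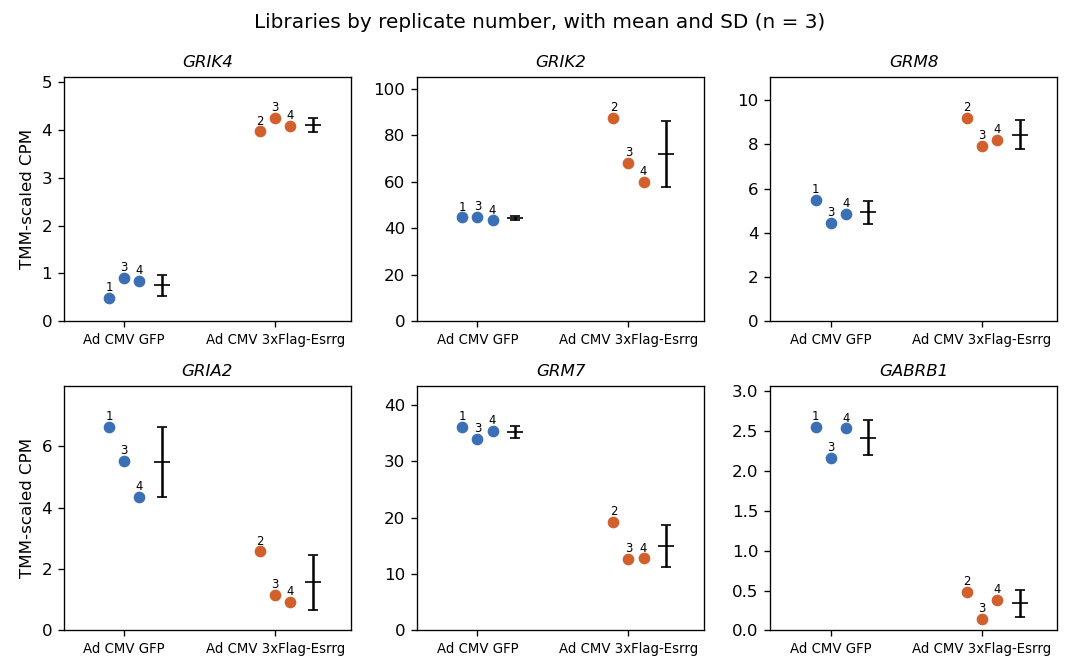
TMM-scaled CPM of 6 receptor genes in each library (numbers are replicates), with the group mean and SD (n = 3) beside the points. *GRIK4*, *GRIK2* and *GRM8* are higher and *GRIA2*, *GRM7* and *GABRB1* lower with Ad CMV 3xFlag-Esrrg, and in all 6 genes the libraries of the groups do not overlap.

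GABA-B receptors need both of their subunits, GABBR1, which binds GABA, and GABBR2, which couples to the G protein. *GABBR1* had 4, 0 and 3 counts against 1, 4 and 3, and neither gene was tested. Of the 31-base words in the *GABBR1* transcripts, 89.6% also occur in alternate contigs of GRCh38, where reads that align to several places would not be counted, so its level is uncertain. The share for *GABBR2*, which had a mean of 2.83 counts, was 0.0679%.

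Of the 4 glycine receptor genes, 2 were tested and 0 were called by edgeR, with 1 higher and 0 lower at an unadjusted p below 0.05 and the same gene called by DESeq2. *GLRB* encodes the beta subunit, which anchors glycine receptors to gephyrin at synapses, and measured 7.48, 8.15 and 8.85 CPM against 12.3, 12.6 and 11.8 CPM. All 3 libraries of the second group were above the first, with a log2 fold change of 0.58 (SE 0.12, adjusted p = 0.0023), a 1.49-fold difference just under the cutoff that was past it in 9 of the 16 other fits. *GLRA1*, which encodes the main ligand-binding subunit of the adult spinal cord, measured 1.31, 0.679 and 0.725 CPM against 1.05, 0.594 and 0.440 CPM, an overlap (-0.40, SE 0.39, adjusted p = 0.41). *GLRA2*, whose product is the main alpha subunit of the embryonic brain, had 4, 5 and 4 counts against 1, 0 and 0.

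Partner proteins that traffic, anchor or help open these receptors were taken from 2 lists. Of 43 partners of glutamate receptors, 31 were tested, with 10 higher (32.3%), 5 lower (16.1%) and a median log2 fold change of 0.10. Over tested protein-coding genes 25.9% were higher and 12.4% lower, with a median of 0.12, so these shares are near the background. *NPTX2*, a secreted pentraxin that gathers AMPA receptors at synapses, measured 7.91, 9.54 and 8.46 CPM with Ad CMV GFP and 74.6, 105 and 122 CPM with Ad CMV 3xFlag-*Esrrg* (log2 fold change 3.54, SE 0.18, adjusted p = 9.7e-07). *ABHD6*, a lipase that also limits AMPA receptor delivery, measured 7.20, 8.50 and 8.04 CPM against 16.3, 20.8 and 22.4 CPM (1.33, SE 0.14, adjusted p = 6.9e-05). Lower were *CACNG4*, an auxiliary AMPA receptor subunit, at 31.9, 35.8 and 32.6 CPM against 11.9, 11.8 and 15.1 CPM (-1.37, SE 0.12, adjusted p = 2.8e-05), and *FRRS1L*, an AMPA receptor assembly factor, at 24.7, 19.9 and 22.4 CPM against 11, 10.9 and 11.2 CPM (-1.02, SE 0.11, adjusted p = 8.4e-05). In each of these 4 genes the groups did not overlap.

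Of 15 partners of GABA and glycine receptors, 13 were tested, with 3 higher (23.1%), 1 lower (7.69%) and a median of -0.14, beside the same 25.9% and 12.4% of protein-coding genes. *CLPTM1*, which holds GABA-A receptors back in the endoplasmic reticulum, measured 60.9, 71.1 and 66.9 CPM against 128, 163 and 177 CPM (1.24, SE 0.13, adjusted p = 6.4e-05). *GABARAP*, a trafficking and autophagy protein, measured 1.10, 1.23 and 1.33 CPM against 1.83, 3.03 and 3.11 CPM (1.13, SE 0.25, adjusted p = 0.0036). Its call was lost with the covariate (0.35, adjusted p = 0.55), and 35.4% of its exon bases overlap another gene on the same strand. *PLCL1*, a binding partner of GABA-A receptors, measured 196, 162 and 170 CPM against 76.4, 55.6 and 52.4 CPM (-1.52, SE 0.15, adjusted p = 4.6e-05).

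Non-coding genes named after the receptors were counted too. There were 9 of them, 6 were tested, and edgeR called 0 higher and 4 lower (also at an unadjusted p below 0.05), and DESeq2 0 and 2, against 6.31% higher and 22.4% lower among all tested genes that are not protein-coding. *GRM7-AS2* (chr3:6892632-6894022) lies within *GRM7* on the opposite strand, with no exon base over a *GRM7* exon. It measured 9.93, 11.3 and 10.9 CPM with Ad CMV GFP and 4.86, 2.73 and 2.05 CPM with Ad CMV 3xFlag-*Esrrg*, and the log2 fold change was -1.76 (SE 0.25, adjusted p = 3.3e-04 by edgeR). *GRM7-AS1* (chr3:7519741-7560333), also within *GRM7*, measured 0.851, 1.39 and 1.51 CPM against 0.636, 0.178 and 0.176 CPM (-1.99, SE 0.46, adjusted p = 0.0048), and its call was lost with the covariate (-0.48, adjusted p = 0.63). *GRM7-AS3* overlaps the start of *GRM7* in part and had 10 to 14 counts per library against 4 to 7 (-1.17, SE 0.40, adjusted p = 0.034). All 3 antisense genes were called lower in the main comparison, as was *GRM7* itself, which measured 33.9 to 36.1 CPM against 12.7 to 19.3 CPM. *GRM7-AS1* and *GRM7-AS3* were tested only because of their counts in the group where they were higher. Their calls are therefore given as a description. The strand setting of the counting is not known, so reads of a gene, introns included, cannot be told apart with certainty from those of an antisense gene within or over it. The antisense values may therefore not be independent of *GRM7*.

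*GRM3-AS1*, with 22.4% of its exon bases over *GRM3* exons, measured 2.06, 2.07 and 1.54 CPM against 1.38, 0.980 and 1.26 CPM (-0.65, SE 0.23, adjusted p = 0.041), and its call was lost in 8 of 15 other fits. *GRM8-AS1*, within *GRM8*, measured 0.780, 0.679 and 0.665 CPM against 1.2, 0.862 and 0.704 CPM, an overlap (0.36, SE 0.29, adjusted p = 0.32). *GABRG3-AS1* was not called either (-0.81, SE 0.46, adjusted p = 0.17), and the other genes of this kind had at most 7 counts in every library.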

How the data were processed

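RNA of 6 SH-SY5Y libraries was sequenced after removal of ribosomal RNA, with a directional kit per the labels. Per the submitters' processing notes the authors used CASAVA, Trim Galore 0.6.7, STAR 2.7.9a, HTSeq 0.11.3, DESeq2 and GRCh38. The annotation release and the strand setting of the counting are not given in the sources used here. The deposited table holds raw counts of reads for 67060 genes, with 5 summary entries that were kept out of library sizes and tests. Reads outside genes, here the entry for no feature, were taken as a share of all entries (29.5% to 52.2%). Of the identifiers, 90.1% were found in GENCODE release 44, which gave symbols, exons and coordinates.

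Counts were analysed with edgeR 4.0.16 in R 4.3.3. Genes passed filterByExpr (24500 genes), were scaled by TMM and were compared by the quasi-likelihood test with both groups in the fit. Calls needed an adjusted p (Benjamini-Hochberg) under 0.05 together with a 1.5-fold difference, and the SE was taken as the size of the log2 fold change divided by the root of F. Counts per 1000000 reads (CPM) were divided by the union of exons for levels between genes. On simulated data with 200 changed genes among 24500, edgeR recovered 187 (89 of 100 at 2-fold, 98 of 100 at 3-fold) with 9 false calls, and DESeq2 1.42.0 recovered 181 with 12. The changed genes were drawn from those with a mean above 1 CPM, as many raised as lowered. These rates therefore do not cover genes at lower levels, such as several receptor genes, or data in which many genes differ. Named receptor genes are those with a mean of at least 10 counts, a few of which are not reported here. Of the 3 lists of partner and supply genes, up to 2 called genes per direction with the largest change and a mean of at least 50 counts are named, where a list had them. *GRIN1*, genes named for low counts and genes with exon overlaps were picked after their values were seen. The members, lists and rules were chosen with earlier results of these data known. Alternatives were DESeq2, RLE factors, library size only, other filters and fold cutoffs, each library left out, protein-coding genes only, the replicate number as a block, a GC and length correction by smooth curves (mgcv 1.9.3, 98.9% of tested genes with values) and the fraction of non-genic reads as a covariate. The olfactory receptor level, the search of 261 alternate contigs, the shares within families, also by longest transcript, the marker sums without 1 gene and the motifs GGGCGG and TGACGTCA were chosen after seeing the data. *GLRA4*, a pseudogene in GENCODE, was left out. Plots and tables were made with Python 3.11.15, pandas 2.3.3 and matplotlib 3.10.9.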

Additional observations from a re-analysis of the deposited data

Results flagged for a closer look

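Reads that fell on more than 1 gene, which HTSeq counts for none of them, made up 5.69% of all reads in replicate 2, 9.84% in replicate 3 and 9.79% in replicate 4 of the Ad CMV 3xFlag-*Esrrg* group, above the highest Ad CMV GFP library at 4.87%. Reads that aligned to several places made up 9.33%, 12.7% and 13% in the same libraries, above the highest Ad CMV GFP library at 7.41%. No comparison of receptor genes used these reads, and their part in the results was not tested.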

How the results depend on the processing

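The low level of these genes limits what can be seen, since 21 of 51 had a mean below 10 counts, and a minimum mean of 50 counts would leave 19 genes in place of 30. The receptor genes called numbered 5 higher and 10 lower. Scaling to library size only left 3 higher and a 2-fold cutoff 3 higher and 6 lower, while the covariate for non-genic reads left 2 lower. Leaving out 1 library in turn gave 5 to 6 higher and 7 to 10 lower. For all genes, 4234 higher and 4117 lower became 2200 and 7566 with library size only, 2814 and 2468 with protein-coding genes only, 1773 and 1323 with the covariate and 1952 and 1982 at 2-fold, and 3710 to 5820 and 2895 to 5141 with 1 library left out. The 4 non-coding genes called lower became 2 with DESeq2, 2 with at least 10 counts in every library, 2 with the GC and length correction, 1 with the covariate and 2 to 4 with 1 library left out, and they could not be fitted with protein-coding genes only. Of the glutamate receptor partners, 10 higher became 6 with library size only, 5 under the GC correction, 3 with the covariate, 5 at 2-fold and 9 to 11 with 1 library left out, and 5 lower became 3 with the covariate and 3 at 2-fold. Of the GABA and glycine receptor partners, 3 higher became 1 with the covariate, 5 with no fold cutoff and 3 to 5 with 1 library left out, and 1 lower became 4 with library size only, 2 under the GC correction, 2 with no fold cutoff and 1 to 2 with 1 library left out. Of the transmitter supply genes, 4 higher became 7 with no fold cutoff and 4 to 6 with 1 library left out, and 1 lower became 0 with DESeq2 (2 at an unadjusted p below 0.05, 4 by edgeR), 4 with library size only, 4 with protein-coding genes only, 4 under the GC correction, 2 with no fold cutoff and 0 to 2 with 1 library left out.

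The replicate numbers 3 and 4 occur in both groups, and the libraries that share them did not deviate together (correlation of deviations from the group means 0.075 and -1.02e-04). As a block, the numbers moved the GABA and glycine partners called lower from 1 to 2, ended the call of *GRIK2* (log2 fold change 0.53, adjusted p = 2.0e-09 by edgeR), gave a call of *GABRR2* (-1.26, adjusted p = 0.035) and turned *GABRA3* (0.00099), which was not called. Block and GC correction together gave 2 GABA and glycine partners lower and 5 supply genes lower, and turned *GRM2* (-0.38), *GRID1* (-0.13), *GRIN2C* (-0.22) and *GRIK5* (-0.45). They also gave calls of *GRIN2D* (-0.75), *GABRE* (-0.70), *GABRR2* (-1.37) and *GLRB* (0.73).

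Sign changes also occurred in genes that were not called in the main comparison, of which *GRIK1* was called with the covariate. The GC correction gave *GRM2* -0.013, *GRID1* -0.31, *GRIN2C* -0.078 and *GRIK5* -0.39. The covariate gave *GLRA1* 0.62, *GRID1* -0.54, *GRIK1* 0.72 and *GABRE* 0.25. Library size only gave *GRID1* -0.29, *GRIK5* -0.18 and *GRIA3* -0.0049, protein-coding genes only gave *GRID1* -0.085, DESeq2 gave *GRIN2D* 0.015 and RLE factors gave it 0.00073. With 1 library left out, *GRID1* ranged from -0.074 to 0.32, *GRIN2D* from -0.10 to 0.046, *GRIK1* from -0.32 to 0.17 and *GABRA3* from -0.18 to 0.094. The levels per kb with the longest transcript were 6.61 for *GRIK5*, 4.6 for *GABRA3* and 8.28 for *GRM7*. The cause of these changes was not tested.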

Other observations

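Of 31 genes for the synthesis, breakdown and transport of the transmitters, 21 were tested, with 4 higher (19%), 1 lower (4.76%) and a median of -0.01. *SHMT2*, which makes glycine from serine in mitochondria, measured 37.6, 45.5 and 42.6 CPM against 90.2, 126 and 135 CPM (1.48, SE 0.15, adjusted p = 5.5e-05 by edgeR). *GLDC*, of the mitochondrial glycine cleavage system, measured 7.52, 7.24 and 7.79 CPM against 15.9, 19 and 19.1 CPM (1.26, SE 0.12, adjusted p = 3.7e-05). The groups of both genes did not overlap. Over all genes tested, 17.3% were called higher and 16.8% lower, and over tested protein-coding genes 25.9% and 12.4%.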
